A study of Oreochromis niloticus with 14 samples.

Results

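The genes described here are those with many reads in both the liver and the testis of adult male Nile tilapia (Oreochromis niloticus), sequenced after injection of benzo[a]pyrene (BaP), a combustion product, or of carrier alone. The members were chosen on measured values. For every gene listed in both tissues, the lower of the mean of the 4 control livers and the mean of the 3 control testes was ranked, the top 200 were taken, and 1 of 3 genes that the rule leaves out was in that top, which left 199 members of 12377 shared genes. The member just inside the limit, amfr, had a lower mean of 173.9 normalized CPM, and the next gene outside had 173.8. Normalized CPM are the reads of a gene scaled to a common effective library size, so they are not per length, and the rule favours long transcripts as well as abundant ones. All fish were year-old males. BaP fish received 3 mg/kg in each of 5 intraperitoneal injections 6 days apart, in DMSO with a corn oil carrier, control fish received that carrier alone, and whole tissue was sampled on day 26. The groups were 4 BaP and 4 control livers and 3 BaP and 3 control testes. Fish of 1 group shared aquaria, so aquarium and BaP cannot be told apart. The question asked of the members was how steady their levels were under BaP in each tissue, including rpl8, which the study used as its reference gene for qPCR.

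Ribosomal proteins are the protein parts of the ribosome, made in nearly equal amounts by every growing cell, and their mRNAs are among the most abundant in most tissues. Elongation factors bring amino acids to the ribosome, and chaperones and the translocon receive the new chain. Because such genes are expressed in nearly all cells, several are used as reference genes, against whose level other genes are expressed, and a reference is useful only where its own level is steady. BaP itself is taken up from blood by the liver, where aryl hydrocarbon receptor signalling induces the enzymes that oxidize it. In whole tissue, fewer cells of a type and less RNA per cell cannot be told apart.

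Names were to hand for 49 members and 150 went without one. All named genes come from a list of genes that the study called altered in these same libraries, so the named members lean towards those that differed, and their counts are no independent evidence. The 49 include 22 cytosolic ribosomal proteins and 6 translation factors or ribosome partners. The read depth was from 12485109 to 42836246 reads on genes in liver and from 26694344 to 30347667 in testis, and no member had fewer than 234 reads in any library. Liver control 3 stood apart for several members, described with them. Hepatocyte markers (29 named rows) summed to between 121450 and 174190 normalized CPM in control livers and between 168495 and 245168 in BaP livers, against 238 to 2068 in testis (24 rows), and 1 row was at 0 in 1 liver library. Red cell markers (6 rows) summed to between 41.4 and 325 in control livers and between 37.5 and 109.8 in BaP livers. Exocrine pancreas markers (10 rows) summed to between 11781 and 37268 in control livers and between 30669 and 35095 in BaP livers. In testis they summed to between 7.05 and 12.9 in control fish and between 26.0 and 283 in BaP fish, with no row at 0. No list of testis markers was checked, since the names to hand gave none.

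The reference gene rpl8 (ENSONIG00000006857), a protein of the large ribosomal subunit, was 19th in the ranking. In liver its normalized CPM was 878, 938, 1037 and 786 in the control fish and 1573, 1247, 1678 and 1519 in the BaP fish. Every BaP liver lay above every control liver. Control livers averaged 910 ± 105 and BaP livers 1504 ± 184 (SD, n = 4 each), a log2 fold change of 0.72 (SE 0.20, 95% confidence interval 0.27 to 1.18) on the log2(value + 1) scale, or 1.65-fold (1.21 to 2.26). Over all liver genes the limma test did not call it (p = 0.0052, Benjamini-Hochberg adjusted p = 0.212), and an exact two-sided permutation test over the 8 livers gave p = 0.0286, the smallest that 4 against 4 allows (0.0571 adjusted over the 2 tissues). Under DESeq2's Wald test the same difference had an adjusted p of 0.019. Scaling by the library total alone gave a log2 fold change of 0.52, and leaving out each liver in turn gave 0.66 to 0.81.

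In testis rpl8 was 1159, 1159 and 1427 in the control fish and 897, 945 and 1279 in the BaP fish. Here the groups overlapped, with BaP testis 3 above the 2 lower controls. Control testes averaged 1248 ± 155 and BaP testes 1040 ± 208 (SD, n = 3 each), and the log2 fold change was -0.27 (SE 0.22, interval -0.80 to 0.25, limma adjusted p = 1.00, exact permutation p = 0.3, where 0.1 is the smallest that 3 against 3 allows). The interval does not exclude a fold change of 1.5 downward. The log2 fold change of rpl8 in testis was -0.43 without BaP testis 3, -0.18 without BaP testis 1 and -0.17 without control testis 3. The change in liver minus that in testis was 1.00 on the log2 scale (SE 0.28, adjusted p = 0.526 in limma's interaction test over 12377 genes).

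**Figure D1:**
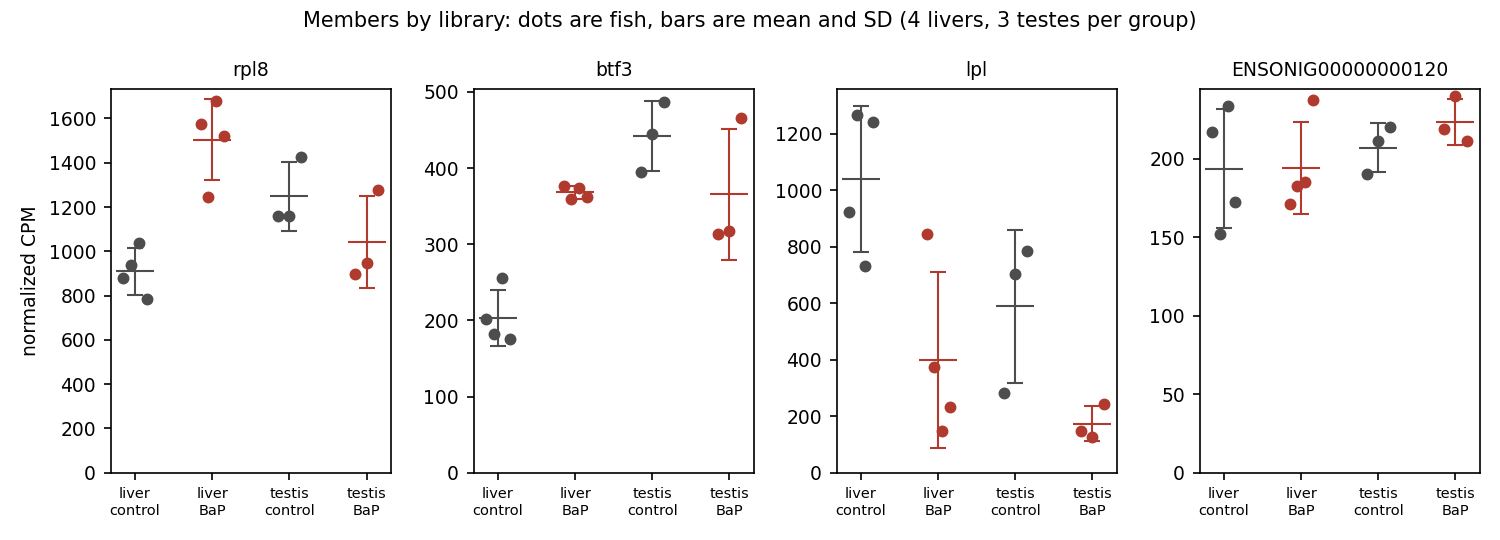
Normalized CPM of rpl8, btf3, lpl and ENSONIG00000000120 in each library (vertical axes, from 0), by tissue and group. Dots are fish and bars are the mean and SD of 4 livers or 3 testes. BaP livers lay above control livers for rpl8 (1247 to 1678 against 786 to 1037) and btf3, lpl was lower with BaP in both tissues, and ENSONIG00000000120 overlapped in both.

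Across the 199 members in liver, the median log2 fold change was 0.35, against 0.017 over all 12902 liver genes. The median size of the change without its sign was 0.55 for members and 0.29 for all genes. Limma called 0 members at an adjusted p under 0.05, where 0.0698% of all genes (9) were called. EdgeR's quasi-likelihood test also called 0 members, where it called 5 of all 12902 genes. EdgeR's exact test called 6 members, all lower with BaP, where it called 224 genes in all. DESeq2 called 43 members, of which 32 were higher, where it called 443 genes in all. At an unadjusted p under 0.05 there were 99 members, or 49.7%, where 13.5% of all liver genes were past it. Of these 80 were higher with BaP, where the share of all genes was 6.76%, and 19 were lower, where it was 6.77%. At the study's threshold, an unadjusted p under 0.05 with a fold over 1.5, there were 80 members (40.2%), where 12% of all genes passed. The groups did not overlap with BaP higher for 70 members, or 35.2%, against 4.05% of all genes, and with BaP lower for 10, or 5.03%, against 3.67%. The 150 members without a name had a median of 0.29, and 43 of them lay wholly above the controls and 4 wholly below. Nearly all of these are members that the study did not call altered, so they lean towards smaller changes. Their median size of change was 0.43, against 0.80 for the named members.

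The library scaling bore on these values. The 10 genes with most reads in a library took 15.1% ± 1.31 of the reads in control livers and 20.2% ± 2.31 in BaP livers (SD, n = 4 each, exact permutation p = 0.0286). With scaling by the library total in place of TMM the median over all liver genes shifted to -0.16 and that of the members to 0.15. The members stood 0.31 to 0.34 above all genes under either scaling. A scaling factor moves every gene of a library nearly alike, so this gap could hardly change and is no test of the members' difference. The control values that chose the members also enter the fold changes. Ranking by the BaP means instead (200 genes, 172 shared with the members) gave a median of 0.48. That ranking favours genes that were higher in BaP fish, so its larger median is partly built in. By the control ranking, the top 100 gave 0.58 and the top 400 gave 0.066.

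**Figure D2:**
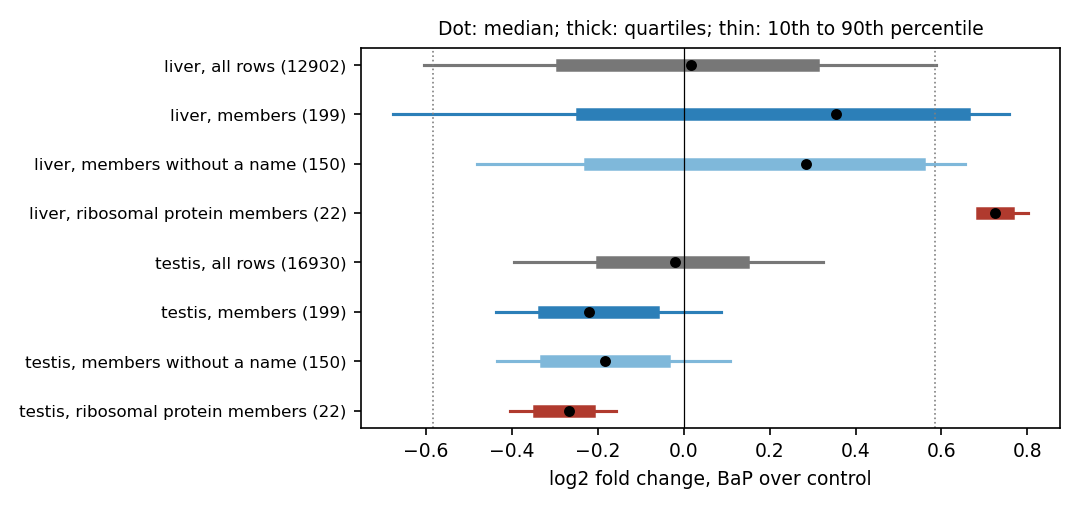
Log2 fold change (horizontal axis, BaP over control) in liver and testis for all rows, the 199 members, the 150 without a name and the 22 ribosomal protein members. Dots are medians, thick bars quartiles and thin bars the 10th to 90th percentile, with dotted lines at a fold of 1.5. Ribosomal protein members sat at a median of 0.72 in liver and -0.27 in testis.

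In testis the members leaned the other way. Their median log2 fold change was -0.22, against -0.021 over all 16930 testis genes, and 168 of 199 had a value below 0. Single fish bore on its size, since the median was -0.13 without BaP testis 1, -0.14 without control testis 3 and -0.36 without BaP testis 3. Ranking by the control means favours genes that read high in control testes, so a lean below 0 is partly built in. In control testis 3, 158 of the 199 members lay above the control mean. Limma called 0 members at an adjusted p under 0.05, where 0.00591% of all genes (1) were called. The quasi-likelihood test called 0, and edgeR's exact test and DESeq2 called 2 each, lpl and ENSONIG00000012697 in both. Over all 16930 testis genes the same tests called 0, 29 and 54, in that order. At an unadjusted p under 0.05 there were 3 members, or 1.51%, where 2.52% of all testis genes passed, with 7 members without BaP testis 3 and 8 without control testis 1. At the study's threshold there were 2 members, where 2.18% of all testis genes passed. Groups did not overlap with BaP lower for 9 members, against 2.84% of all genes, and with BaP higher for 5, against 3.24%. The pancreatic marker RNA noted above was higher in all 3 BaP testes than in any control testis. Of the hepatocyte marker rows, named from the study's list of altered genes, 21 of 24 had a log2 fold change above 0 in testis. Over all testis genes 7844 of 16930 did. The summed hepatocyte markers overlapped, at 238, 647 and 2068 in control testes and 542, 1166 and 369 in BaP testes. In every control testis most of that sum was 1 row, apoeb. It read 166, 590 and 1994 in control and 414, 268 and 281 in BaP testes. The overlap of the sum therefore does not describe the other hepatocyte marker rows. The part of pancreatic or hepatocyte marker RNA in the members' values was not tested.

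By sign alone, 119 members had values above 0 in liver but below 0 in testis, 49 were below 0 in both, 17 were below 0 in liver alone and 14 were above 0 in both. The test of the difference itself, limma's interaction of tissue and treatment, called 0 members at an adjusted p under 0.05, where 0% of genes were called, and 88 (44.2%) at an unadjusted p under 0.05, where 6.9% of genes were. EdgeR's quasi-likelihood interaction test likewise called 0. Without liver control 3 limma called 1 member, among 14 genes, and without any other single library it called 0 members. Of the 88 members, 83 had the higher log2 fold change in liver. Under scaling by the library total the count was 52.

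**Figure D3:**
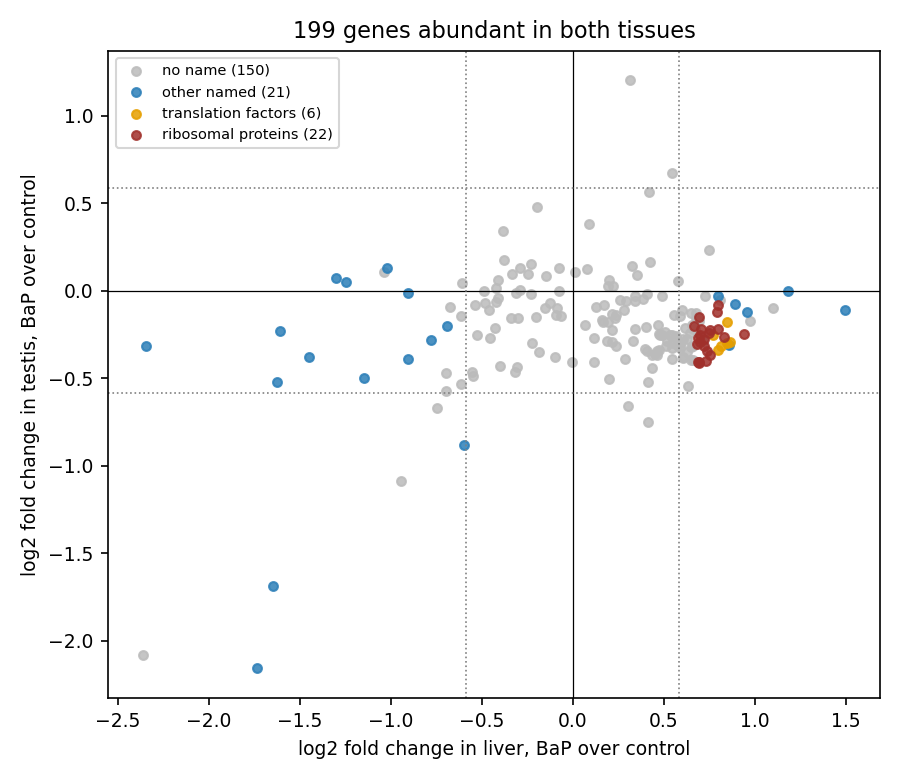
Log2 fold change in testis (vertical axis) against that in liver (horizontal axis) for the 199 members, coloured by list, with dotted lines at a fold of 1.5. The ribosomal proteins (22) and translation factors (6) lie together at 0.67 to 0.94 in liver and -0.41 to -0.08 in testis, and the named members lower in liver spread from -0.60 to -2.34.

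The ribosomal protein members deviated together between fish. All 22 had a value above 0 in liver (median 0.72, range 0.67 to 0.94), and in 21 every BaP liver was above every control liver. The exception was rpsa, of the small subunit, at 901, 1168, 1172 and 898 in control and 1883, 1122, 2058 and 1775 in BaP livers. Over all liver genes, 4.05% lay wholly above the controls. All 22 were named from the study's list of altered genes in these libraries. Their size of change, narrow range and lack of overlap in liver are therefore partly set by that choice. None passed an adjusted p of 0.05 in limma, the adjusted values lying between 0.177 and 0.284. The highest was rps2, of the small subunit, at 1230, 1056, 1371 and 1118 normalized CPM in control livers and 2538, 1746, 2695 and 2266 in BaP livers, a log2 fold change of 0.94 (SE 0.22, adjusted p = 0.177). Then came rpl15, rps6 and rpl3 at 0.83, 0.80 and 0.80, and the smallest were rps3, rpl13, rplp2 and rpl6 at 0.67, 0.68, 0.69 and 0.69. In testis all 22 were below 0 (median -0.27, range -0.41 to -0.08), with 0 at an unadjusted p under 0.05 and no member without overlap. That median was -0.45 without BaP testis 3, -0.17 without BaP testis 1 and -0.15 without control testis 3. Without BaP testis 1, 2 of the 22 were above 0, and without control testis 3, 3 were, rps6 among them both times (0.044 and 0.096). In rps2 the testes read 1079, 1145 and 1345 in control and 837, 876 and 1358 in BaP fish.

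Averaged over the 22 genes and set against the control mean, the BaP livers stood at 0.78, 0.46, 0.92 and 0.79 on the log2 scale and the control livers at -0.04, 0.05, 0.18 and -0.19. BaP liver 2 was the lowest of its group. The BaP testes stood at -0.52, -0.38 and 0.077 and the control testes at -0.12, -0.14 and 0.26. Replicate 3 of each testis group was thus the highest, and the groups overlapped. Replicate numbers run within a tissue and do not mark the same fish in both. By the sample titles, control 3 is number 18 in liver and 20 in testis. BaP liver 2 and BaP testis 3 both carry number 15. In every library rpl8 lay within 0.062 of the mean of the other 21. The named genes whose liver pattern was most like that of rpl8, over 8 livers, were rpl7a, rpl15, rpl26 and rpl6 (Pearson's r from 0.991 to 0.997), followed by c8b at 0.989, which encodes a chain of the terminal complement complex and was no member. These 8 points share the difference between the groups.

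**Figure D4:**
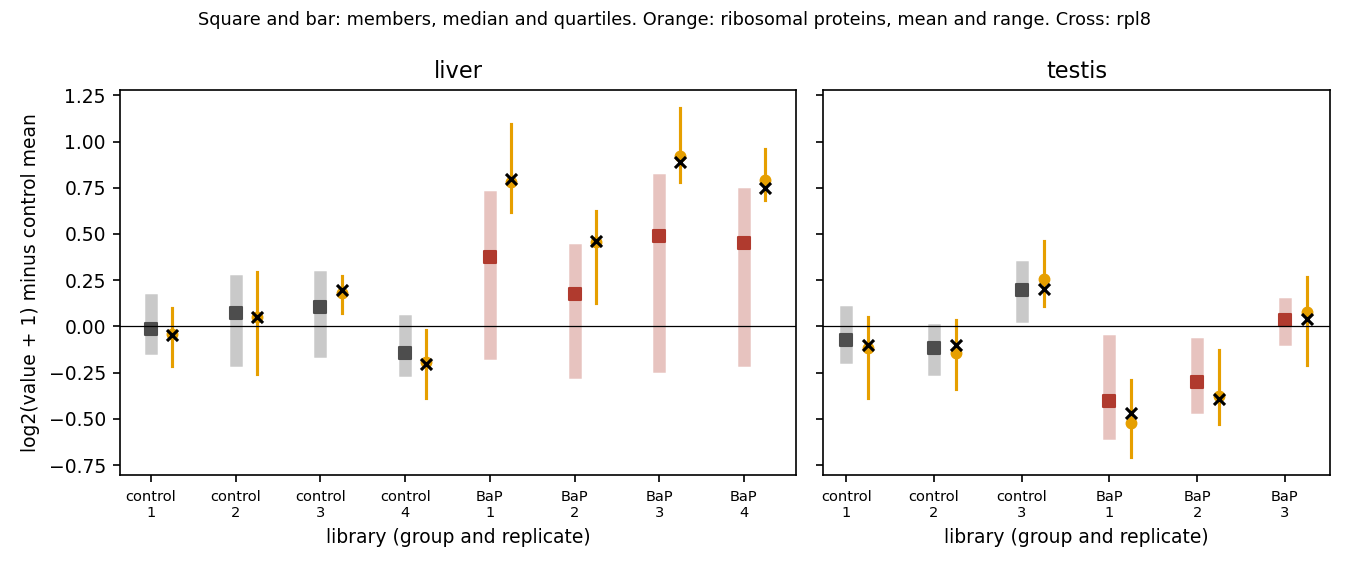
Log2(value + 1) minus the control mean of the tissue (vertical axis) in each library (horizontal axis). Squares and bars are the median and quartiles of the 199 members, orange dots and lines the mean and range of the 22 ribosomal proteins, and crosses rpl8. BaP livers stood at 0.46 to 0.92 for the ribosomal mean, while the testis groups overlapped.

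Members next to the ribosome had like values in liver. The elongation factor eef1a1l1, which carries aminoacyl-tRNA, had a log2 fold change of 0.85, and its exchange factor subunits eef1g and eef1b2 had 0.85 and 0.77. Both parts of the nascent polypeptide-associated complex were higher, naca by 0.81 and btf3 by 0.87. In btf3 the livers read 202, 182, 256 and 175 in control and 377, 359, 374 and 362 in BaP fish (SE 0.20, limma adjusted p = 0.179), with the 4 BaP livers close together and apart from the controls. The names btf3, eef1b2, MCL1 and sec61a1 belong to more than 1 gene ID, so reads of near copies may be split between them. The abundant tpt1, translationally controlled tumor protein, read 1207, 1139, 1677 and 1048 in control and 2243, 1817, 2311 and 2343 in BaP livers (0.80, SE 0.22, adjusted p = 0.212). The ribosome-bound scaffold gnb2l1 had 0.86. In testis the 6 translation members lay between -0.34 and -0.18, and none passed.

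Named rows come from the study's list of altered genes in these libraries, so genes not called altered are missing from the counts that follow. Over all genes, 6653 of 12902 were above 0 in liver and 9086 of 16930 below 0 in testis. Over all named rows, not members alone, 25 of 25 ribosomal protein genes were above 0 in liver. In testis 25 of 25 were below 0, with 0 past an adjusted p of 0.05 in either tissue. Of 26 translation genes 23 were above 0 in liver (median 0.81) and 25 below 0 in testis (median -0.16), again with 0 called. Chaperones (11 rows, 9 above 0 in liver, median 0.82) had 1 member and the secretory route (5 rows, 3 above 0) 1 member. The list of proteasome and ubiquitin genes held no named member, and its 12 rows were all below 0 in liver (median -0.90). Glycolysis (12 rows, 7 above 0), iron (4, all above 0), the respiratory chain (3, 2 above 0) and the cytoskeleton (6, 2 above 0) had no named member either, and 1 glycolysis row was called in liver. In testis the medians of these 7 lists lay between -0.20 and 0.86.

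Members outside the ribosomal and translation lists also had higher values in BaP livers. The nucleolar helicase ddx21, which acts in ribosomal RNA processing, had the highest log2 fold change of any member in liver. It read 252, 117, 502 and 147 in control and 674, 425, 780 and 621 in BaP livers, a log2 fold change of 1.495 (SE 0.43, adjusted p = 0.218), with control 3 above BaP 2. The ribosome biogenesis factor nsa2, known from yeast, had 0.96 and read 342 in control 3 against 130 to 184 in the other controls and 306 to 392 in BaP livers. Cyclin G1 (ccng1), a p53 target in mammals, read 191, 151, 385 and 260 in control and 514, 426, 619 and 574 in BaP livers (1.18, SE 0.30, adjusted p = 0.196), without overlap. In testis ccng1 had the 7th smallest SD over all libraries of the 199 members, at 419, 459 and 484 in control and 457, 411 and 494 in BaP fish, with an interval of -0.44 to 0.43. The chaperone HSP90AB1 had 0.80 in liver and -0.03 in testis, where it read 5943 to 7347 in control and 6107 to 6714 in BaP fish. The translocon pore sec61a1 had 0.89 in liver and -0.08 in testis. ENSONIG00000004840, without a name, read 1705, 1238, 2587 and 1116 in control and 3799, 2475, 4053 and 3382 in BaP livers (1.10, SE 0.30, adjusted p = 0.209).

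Other named members had lower values in BaP livers. MCL1, an anti-apoptotic BCL2 relative, read 331, 480, 250 and 472 in control and 157, 156, 129 and 106 in BaP livers, a log2 fold change of -1.45 (SE 0.27, limma adjusted p = 0.135). The ubiquitin ligase rnf19a read 185, 195, 154 and 194 in control and 93.4, 91.7, 75.9 and 96.3 in BaP livers (-1.02, SE 0.20, adjusted p = 0.147). Neither overlapped. In testis rnf19a had 0.13 (interval -0.31 to 0.57), and the difference between the tissues was -1.15 (SE 0.25, limma adjusted p = 0.514). The antizyme inhibitor azin1b, which acts on polyamine synthesis, had -1.30 in liver and 0.07 in testis, and the apoptosis regulator BFAR had -1.24 and 0.05. The arrestin-domain genes arrdc3a and arrdc2 had -1.63 and -1.14 in liver and -0.52 and -0.50 in testis. The lysosomal membrane protein LAMP2 (-0.90) and mgea5 (-0.69), which removes O-GlcNAc from proteins, did not overlap between groups in either tissue, with values of -0.39 and -0.20 in testis.

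For some of these genes liver control 3 read at the level of the BaP livers. The fatty acid binding protein fabp3 read 890, 944, 101 and 1343 in control and 171, 143, 105 and 65.2 in BaP livers (-2.34, SE 0.72, adjusted p = 0.235). The aldehyde dehydrogenase aldh9a1a.1 read 207 in control 3 and 983 to 1222 in the other controls, against 156 to 298 in BaP livers (-1.61). The transketolase tktb read 277 in control 3, 675 to 862 in the other controls and 278 to 349 in BaP livers (-0.90). Without control 3, limma called 13 members, 5 higher and 8 lower with BaP, among 216 genes called in all. Each of the 7 fits without another single liver called 0 members. Control 3 was singled out because it read like the BaP livers, so leaving it out favours a larger difference and these calls are no independent support. The 13 were ddx21, ccng1, nsa2, btf3 and ENSONIG00000004840 among the higher, and fabp3, aldh9a1a.1, arrdc3a, MCL1, BFAR, tktb, rnf19a and ENSONIG00000012697 among the lower. The ribosomal median was then 0.79 and the adjusted p of rpl8 0.102.

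With an unadjusted p under 0.05 and a lower value in both tissues stood lpl and ENSONIG00000012697. Lipoprotein lipase (lpl), which frees fatty acids from circulating triglyceride, read 922, 1266, 731 and 1240 in control and 845, 374, 148 and 232 in BaP livers (-1.65, SE 0.47, limma adjusted p = 0.222), with BaP 1 above control 3. In testis it read 281, 704 and 785 in control and 149, 127 and 243 in BaP fish (-1.68, SE 0.45, limma adjusted p = 1.00), without overlap, and edgeR's exact test gave an adjusted p of 0.042. ENSONIG00000012697 read 104, 235, 343 and 105 in control and 25.6, 20.5, 40.5 and 53.9 in BaP livers (-2.36, SE 0.44, limma adjusted p = 0.135). In testis it read 75.1, 191 and 289 in control and 29.6, 32.8 and 53.3 in BaP fish (-2.08, SE 0.51, limma adjusted p = 1.00), and the exact test gave adjusted p-values of 0.00045 in liver and 0.0072 in testis. The groups did not overlap in either tissue. The gene si:xx-by187g17.1 had -1.73 and -2.16 with wide scatter, at 68.2 to 2160 in control and 76.6 to 436 in BaP livers. Apolipoprotein apoeb overlapped in both tissues, with -0.60 (SE 0.62) in liver and -0.88 (SE 0.82) in testis, where the controls ran from 166 to 1994. The 1 member higher in testis at an unadjusted p under 0.05, ENSONIG00000008283, read 300, 257 and 282 in control and 412, 387 and 371 in BaP fish (0.48, SE 0.18, limma adjusted p = 1.00).

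A member was counted as held where the 95% interval of its fold change lay within 1.5-fold either way. In liver 4 members were held, or 2.01%, where 6.14% of all liver genes were, and in testis 29, or 14.6%, where 15.9% were. None of the 22 ribosomal proteins was held in either tissue. In liver none could be, since all 22 were named from the study's list of altered genes. Their log2 fold changes there, 0.67 to 0.94, were themselves beyond 1.5-fold. In testis the intervals of the 22 reached a median of 0.587 to either side on the log2 scale, about 1.5-fold itself. Over all members in testis that median was 0.570. With 3 fish a group many of the 22 could not be held at any fold change, so their count in testis does not show unsteadiness. Leaving out BaP liver 1, 2, 3 or 4 or control liver 4 left 0 to 2 members held in liver, and leaving out any testis other than control 1 left 0 to 9 in testis. Leaving out other single fish gave up to 5 in liver and 29 in testis, so the count depended on which fish was left out. ENSONIG00000003156 read 710, 576, 659 and 663 in control and 621, 665, 508 and 689 in BaP livers (-0.08, interval -0.52 to 0.37), and 295, 247 and 233 against 281, 243 and 246 in testis (-0.003, interval -0.46 to 0.45). ENSONIG00000000120 read 217, 152, 233 and 172 in control and 171, 183, 185 and 237 in BaP livers (0.01, interval -0.49 to 0.51), and 190, 211 and 220 against 219, 240 and 211 in testis (0.11, interval -0.32 to 0.54). These 2 members were held in both tissues. ENSONIG00000016172 (0.13 in liver, 304 to 324 in control and 295 to 425 in BaP fish) and ENSONIG00000015065 (-0.10, 287 to 353 and 295 to 306) were held in liver alone, with testis intervals of -0.67 to 0.48 and -1.26 to 0.51. These 4 were picked for their values.

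Between fish of 1 group the members varied less than the general run of genes, except in BaP testes. The median SD of log2(value + 1) was 0.28 in control livers against 0.42 over all genes, 0.23 against 0.35 in BaP livers, 0.25 against 0.35 in control testes and 0.27 against 0.26 in BaP testes. Genes with few reads add counting noise to the second value of each pair. For rpl8 the SD was 0.17 in control livers, where 42 members had a smaller one, and 0.18 in BaP livers, where 73 did. Over all 8 livers together it was 0.42, and 115 of the other members varied less. Over all 6 testes it was 0.25, and 74 varied less.

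When every library was divided by its own rpl8 value, as a single reference gene would do, the median over all liver genes moved to -0.59 and that of the members to -0.37, and limma called 2445 liver genes, with 47 members among them, all lower. By construction this divides out the 1.65-fold difference of rpl8 itself. In testis the same division moved the median of all genes to 0.23 and of the members to 0.053, and 0 members were called. The 199 members took 13.7% ± 0.937 of the reads in control livers and 14.4% ± 0.381 in BaP livers (SD, n = 4 each), a difference within the spread (exact permutation p = 0.2). The difference of 0.66 percentage points was 0.26 without control liver 4 and 1.03 without control liver 2. In testis they took 12.3% ± 2.04 in control and 11.0% ± 1.68 in BaP fish (SD, n = 3 each, exact permutation p = 0.5). That difference, -1.27 percentage points, ran from -2.23 without BaP testis 3 and -2.15 without control testis 1 to -0.66 without BaP testis 1 and -0.16 without control testis 3.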

How the data were processed

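RNA from 8 livers and 6 testes was sequenced from poly(A) libraries. Per the labels and the paper's methods, the authors aligned reads with TopHat and used edgeR. The build, annotation and counting program are not given in the sources used here. The deposited signal values are reads divided by an effective library size (reads on genes times a TMM factor, 0.858 to 1.19), scaled as CPM. Dividing by the value of 1 read gave whole reads for 100% of values (tolerance 0.05). The authors' own comparisons were not used.

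Since the values are normalized, limma (3.58.1) on log2(value + 1) was fitted per tissue over all rows, with Benjamini-Hochberg adjustment, and for the interaction over both tissues. Exact and quasi-likelihood tests of edgeR (4.0.16) and DESeq2 (1.42.0) ran on recovered reads as alternatives. The scripts were tested on simulated data. The interaction fit takes libraries as independent, although both tissues share 6 fish numbers (correlation 0.036). Replicates are different fish. Other alternatives were scalings, a pseudocount of 0.1, a minimum value of 1 in 3 or more libraries, a replicate block, other member rankings and leaving out each replicate. Scaling by rpl8, and the alternatives for the ribosomal list and the share of reads, were added after seeing the data.

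The members and lists were chosen with earlier results of these data known. Named were rpl8, the 4 largest and 4 smallest changes per list in liver, the 5 highest and 5 lowest named members per tissue, the 5 steadiest, the 3 with the highest lower mean, the 5 most like rpl8 and any member past the threshold. MCL1, gnb2l1, rpsa, LAMP2 and the members given by ID were named after their values were seen. Names came from the paper's supplementary list (1526 IDs, 52 of them members, 49 with a name). The reference table pairs none of these IDs, and no sequences were used.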

Additional observations from a re-analysis of the deposited data

Results flagged for a closer look

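In 88 groups of 4 livers (the genes named, and the share of reads on members), 3 had 1 fish far from the other 3 by Dixon's criterion, and chance gives about 1 in 20. In rpl13, BaP liver 2 read 678 normalized CPM and the others 912 to 938 (gap over range 0.903). In nsa2, BaP liver 2 read 306 and the others 385 to 392 (0.914). In mgea5, BaP liver 1 read 144 and the others 181 to 188 (0.839).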

How the results depend on the processing

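The values that moved are given by setting. DESeq2's Wald test called 43 members in liver and 2 in testis, with 7 testis members at an unadjusted p under 0.05, 8 held in liver and 56 in testis, and an rpl8 log2 fold change of 0.71 past the threshold in liver. EdgeR's exact test called 6 and 2, with 6 testis members at an unadjusted p under 0.05, and the quasi-likelihood test 5. Neither gives an interval, so held members were not counted for them. A trended robust prior gave 7 held in liver, 46 in testis and 5 testis members at an unadjusted p under 0.05. Scaling by the library total gave a liver member median of 0.15, a ribosomal median of 0.52, 11 held in liver and 52 members past an unadjusted p of 0.05 in the interaction test. Scaling by rpl8 reversed the member medians (-0.37 in liver, 0.053 in testis) and the ribosomal median in testis (0.0058), set the ribosomal median in liver to 0.00024 by construction, called 47 members in liver, and gave 39 held in liver and 0 in testis.

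Ranked by the BaP means, which favours genes higher in BaP fish, the liver median was 0.48. The share of reads on those genes was 1.59 percentage points higher with BaP, against 0.66 for the members. The top 100 gave a median of 0.58, 1 held in liver, 6 in testis and 1 testis member at an unadjusted p under 0.05. The top 400 gave 0.066, 1 liver call, 149 liver and 7 testis genes at an unadjusted p under 0.05, and 15 and 101 held, the counts being over more genes. Without 1 replicate each, liver calls were 0 to 13, liver members at an unadjusted p under 0.05 71 to 106 and in testis 2 to 8, members held 0 to 5 in liver and 0 to 29 in testis, interaction calls 0 to 1, and member medians 0.34 to 0.40 in liver and -0.36 to -0.13 in testis.

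Replicate numbers belong to different fish, and same-numbered libraries deviated together with correlations of -0.024 to 0.20 in liver and -0.077 to 0.37 in testis, so they do not pair the samples. In neither tissue did every library correlate best with its own number. The replicate block gave 0 held in liver and 12 testis members at an unadjusted p under 0.05. The other 268 values for the main results and 1380 of 1428 for single genes kept direction and side of the threshold or stayed within their limits. With 4 and 3 fish a group, a change of rpl8's size was not called in limma.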
